A study of Mus musculus with 15 samples.

Results

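In regenerating wild type mouse liver, 913 protein-coding genes had a listed region (island) of H3K27me3 at a gene end at 0 h and again at 96 h, and none at either end at 30 or 40 h. A gene end counted as marked when a window of 1 kb on each side of it touched a listed region by at least 1 bp. These genes, called members here, made up 4.42% of the 20665 protein-coding genes on chromosomes 1 to 19 and 16.9% of the 5394 genes marked at both 0 and 96 h. The other 4481 of the 5394 also had a listed region at 30 or 40 h and are called retained genes here. Taken singly, 1473 of the 5394 genes (27.3%) were unmarked at 30 h and 1611 (29.9%) at 40 h. The 4 regeneration lists chose the members, so their presence and absence at these times is a description and no result.

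The study profiled histone marks by chromatin immunoprecipitation and sequencing (ChIP-seq) of liver nuclei digested with micrococcal nuclease. The mice were C57Bl/6, 8 to 12 weeks old. Lists of enriched regions from 12 libraries were used. The Uhrf1hepKO (KO) mice gave 1 H3K27me3, 2 H3K4me3 and 1 H3K9me3 library, all at baseline. The wild type (WT) mice gave the same number of baseline libraries of each mark, and 1 H3K27me3 library each at 0, 30, 40 and 96 h of regeneration. The titles place the regeneration libraries in round 3, and the H3K9me3 and second H3K4me3 libraries in round 2. Titles of the baseline H3K27me3 and first H3K4me3 libraries name no round. Comparisons of the regeneration lists with the baseline lists thus cross these labels. In the KO, as its name says, hepatocytes lack Uhrf1, a gene needed to copy DNA methylation at replication. The labels give neither the driver of the deletion, nor the number of animals in a library, nor the way regeneration was started. The second H3K4me3 library of each genotype carries an antibody tag for H3K9me3 against its title, and was used by its title. No H3K4me3 or H3K9me3 library was taken during regeneration, so both marks are described at baseline only. With 1 H3K27me3 library at each time and in each genotype, no difference between times or genotypes has a replicate check and no p-values are given. Intervals below are exact Clopper-Pearson intervals at a confidence level of 95% and cover counting error only, and neighbouring genes that share a region are not independent.

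H3K27me3 is written by Polycomb repressive complex 2 and is found over silent developmental genes, where it often spreads over many kilobases. Polycomb repressive complex 1 binds the mark and compacts the chromatin. Many of the genes it covers have promoters rich in CG dinucleotides, and some also carry H3K4me3, the mark of active or poised promoters. When DNA is replicated, old histones are shared between the daughter strands and the mark has to be restored on the new ones. After loss of liver tissue, hepatocytes leave quiescence, replicate their DNA and restore liver mass.

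Promoter sequences are shown for 4 members in strong regions over very different DNA. They were taken from a list of 10, ordered by the lower fold of 0 and 96 h. The list has 1 gene for each 0 h region, the first by alphabet where members tied, and no genes with provisional names. Of those listed with a promoter sequence, these 4 had the most and the fewest CG pairs. Hoxa13 thus stands for 5 HoxA members of equal fold, and Tbr1, which shares a region with Psmd14 and held 7 CG pairs, was not on the list. Each sequence runs from 250 bases before to 50 bases after the annotated start, 5′ to 3′, is taken from RefSeq for GRCm38.p6, and has its CG pairs in capitals.
Hoxa13: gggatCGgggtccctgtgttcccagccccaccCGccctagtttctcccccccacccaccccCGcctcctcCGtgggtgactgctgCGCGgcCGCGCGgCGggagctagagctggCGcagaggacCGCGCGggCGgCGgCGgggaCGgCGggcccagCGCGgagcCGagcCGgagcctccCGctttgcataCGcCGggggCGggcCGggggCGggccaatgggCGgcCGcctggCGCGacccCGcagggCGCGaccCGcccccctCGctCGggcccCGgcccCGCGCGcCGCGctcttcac
Igf2bp3: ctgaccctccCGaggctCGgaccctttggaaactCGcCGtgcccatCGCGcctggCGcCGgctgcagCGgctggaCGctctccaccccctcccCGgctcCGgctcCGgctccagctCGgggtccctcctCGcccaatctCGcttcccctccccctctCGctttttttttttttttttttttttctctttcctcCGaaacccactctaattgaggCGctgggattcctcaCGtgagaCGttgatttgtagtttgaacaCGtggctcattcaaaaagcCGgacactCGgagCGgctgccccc
Atoh7: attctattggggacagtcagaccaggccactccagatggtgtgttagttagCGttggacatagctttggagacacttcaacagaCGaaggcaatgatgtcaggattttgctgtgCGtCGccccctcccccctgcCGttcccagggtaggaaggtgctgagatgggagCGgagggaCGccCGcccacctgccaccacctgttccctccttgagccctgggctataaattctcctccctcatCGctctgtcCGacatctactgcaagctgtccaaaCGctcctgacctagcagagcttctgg
Hoxd4: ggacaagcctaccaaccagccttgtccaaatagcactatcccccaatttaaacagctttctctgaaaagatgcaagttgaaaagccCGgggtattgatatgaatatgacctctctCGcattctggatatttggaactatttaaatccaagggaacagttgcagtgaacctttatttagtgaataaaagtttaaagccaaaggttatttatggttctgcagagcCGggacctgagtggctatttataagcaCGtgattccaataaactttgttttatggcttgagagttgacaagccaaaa

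The Hoxa13 promoter (chr6:52260831-52261130, minus strand) held 45 CG pairs and was 81.0% G or C. Hoxa13 encodes a homeodomain factor of limb and hindgut patterning. The Igf2bp3 promoter (chr6:49214905-49215204, minus strand) held 25 CG pairs. Igf2bp3 encodes an RNA-binding protein of fetal tissue. The Atoh7 promoter (chr10:63099535-63099834, plus strand) held 11 CG pairs. Atoh7 encodes a basic helix-loop-helix factor of retinal ganglion cells. The Hoxd4 promoter (chr2:74721728-74722027, plus strand) held 4 CG pairs and was 39.7% G or C.

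All 4 of these genes had the mark at the start at both 0 and 96 h. The authors' fold over scaled control of the Hoxa13 region was 2.62 at 0 h and 3.27 at 96 h, with no listed region at 30 or 40 h, and it was 2.44 in baseline KO and 2.51 in baseline WT. The Igf2bp3 region had a fold of 2.92 at 0 h and 3.54 at 96 h, against 2.59 in baseline KO and 2.72 in baseline WT. The Atoh7 region had 2.89 at 0 h and 3.25 at 96 h, with 2.08 in baseline KO and 2.17 in baseline WT. The region of Hoxd4, a homeodomain factor of hindbrain and axial patterning, had 2.88 at 0 h and 3.27 at 96 h, with 2.54 in baseline KO and 2.72 in baseline WT. All 4 were thus marked in both baseline libraries. The region at Atoh7 was short, 5 kb at 0 h and 6 kb at 96 h. Distances to regions, here and below, are from the edge of the 1 kb windows around the gene ends, not from the gene. The nearest region to Atoh7 lay 246.8 kb away at 30 h and 200.8 kb away at 40 h. At Hoxd4, inside a region of 196 kb at 0 h, the nearest listed region was 0.840 kb away at 30 h and 2.84 kb away at 40 h.

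Over the 733 members whose promoter sequence was matched (80.3%), the median number of CG pairs was 14, against 9 over 3464 retained genes and 14 over all 16457 genes matched. Of these members, 445 (60.7%) had 10 or more CG pairs, against 49.2% of retained genes and 58.6% of all. The letters GGGCGG, on either strand, were in 52.4% of the members' promoters, against 41.8% of retained genes' and 47.3% of all. The letters TATAAA, on either strand, were in 9.41% of members' promoters, against 13.3% of retained genes' and 13.5% of all. The members' promoters thus stood near the average gene in CG content, and above the other genes that carried H3K27me3 at 0 and 96 h.

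The rule takes either gene end, and the label of promoter does not hold for every member. A region that touches a window can also lie wholly outside the gene. Of the 733 members with a known strand, 622 (84.9%) had the mark at the start-side end at both 0 and 96 h, and 104 (14.2%) had it at the tail end only. Retained genes had the mark at the tail end only in 403 of 3464 cases (11.6%). Psmd14, a gene of the proteasome lid, and Tbr1, a T-box factor of cortical neurons, show the difference. They shared 1 region of 37 kb at 0 h (chr2:61801001-61838000, fold 3.21) and of 44 kb at 96 h (fold 3.56), which touched the tail of Psmd14 and the start of Tbr1. The start of Psmd14 carried H3K4me3 in both WT libraries, with folds of 21.05 and 114.2 in KO and of 25.1 and 87.2 in WT. Tbr1 had a weak H3K4me3 peak in replicate 1 only, with a fold of 6.31 in KO and 7.0 in WT.

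The 4 regeneration libraries differed in how much was called. On chromosomes 1 to 19 the regions covered 490 Mb at 0 h, 427 Mb at 30 h, 389 Mb at 40 h and 468 Mb at 96 h. Their median fold was 1.57, 1.44, 1.44 and 1.55 in the same order, and they held 22109299, 15666769, 13256450 and 22279777 ChIP reads. In regions with identical bounds, control counts were equal at 30 and 40 h (243 of 243) and at 30 and 96 h (213 of 213). At 0 and 30 h they were equal in 1 of 128. The 30, 40 and 96 h lists thus shared a control, and the 0 h list had other control counts. The titles do not say which control each list used. The reads given are those inside listed regions. The ChIP to control scale implied by the reads and the fold had a median of 0.369 at 30 h, 0.342 at 40 h and 0.438 at 96 h. Against their shared control, the 30 and 40 h libraries thus had fewer ChIP reads in total than the 96 h library. Fewer reads, a lower fold and less covered sequence therefore go together with absence at 30 and 40 h, and their part in it was not tested. Cutting each of the 4 lists to its strongest regions at an equal covered length gave 829 members, of which 825 were among the 913. That length was set by the 40 h list, so the cut only removed regions from the other lists. It could not add regions missed at 30 or 40 h and does not bear on the lower reads there. The tissue label was checked on 48 hepatocyte genes, of which 48 and 46 carried H3K4me3 in the KO libraries and 48 and 45 in the WT libraries, and 1 carried H3K27me3 at 0 h.

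The baseline H3K27me3 libraries were not used to choose the members. In baseline KO, 575 of the 913 members carried a listed region (63.0%, interval 59.8 to 66.1), against 26.9% of all genes. In baseline WT, 581 did (63.6%, interval 60.4 to 66.8), against 25.7% of all genes. Retained genes were marked more often, at 92.3% in KO and 89.9% in WT, and genes marked at all 4 times at 93.5% in KO and 92.8% in WT. Genes marked at 0 h alone were marked in 16.7% of cases in KO and 13.1% in WT. The members thus lay between these classes in the baseline libraries, above genes marked at 0 h alone and below genes marked throughout.

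**Figure D1:**
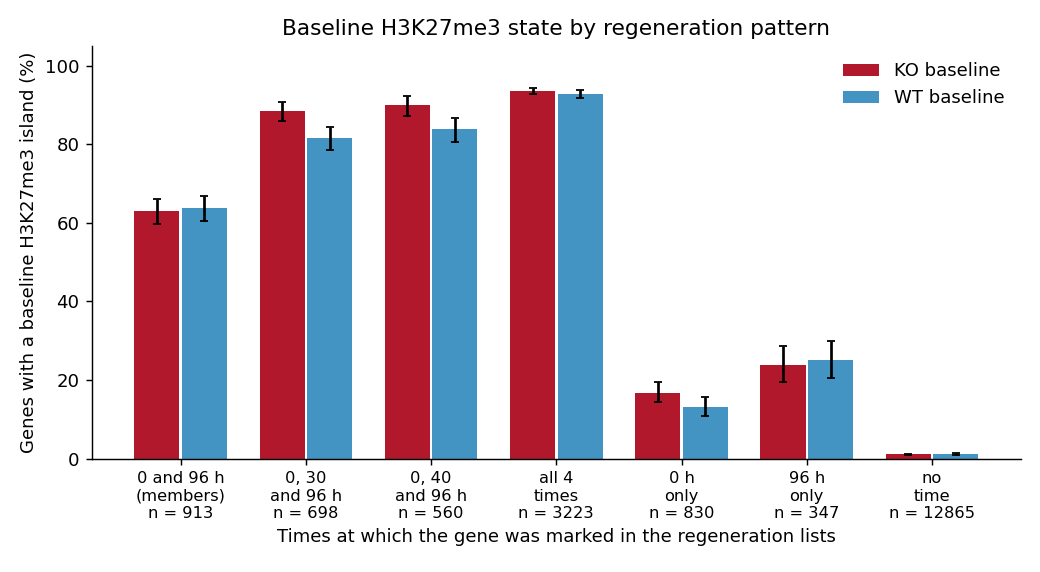
Share of genes with a listed H3K27me3 region in the baseline libraries, KO left and WT right, for genes grouped by the regeneration times at which they were marked. Bars are percent of genes and error bars exact 95% intervals of counting. Members stood at 63.0% in KO and 63.6% in WT, between genes marked at all 4 times (93.5% and 92.8%) and genes marked at 0 h alone (16.7% and 13.1%).

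In both baseline libraries together, 474 members (51.9%) were marked, 101 in KO only, 107 in WT only and 231 (25.3%) in neither. Members marked in both had a median fold of 1.92 at 0 h and 1.93 at 96 h in regions with a median length of 30 kb at 0 h. Members marked in neither had a median fold of 1.81 at 0 h and 1.80 at 96 h, in regions with a median of 16 kb at 0 h. The counts of members marked in KO only and in WT only were close to each other, and each rests on 1 library. The baseline KO list was the larger, with 13006 regions over 499.7 Mb, against 10473 regions over 417.2 Mb in baseline WT. The part of list size in these counts was not tested.

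H3K4me3 was more common at members than at retained genes. Of the 913 members, 463 (50.7%) had a peak at a gene end in both KO libraries, against 29.5% of retained genes and 58.2% of all genes. In both WT libraries 414 did (45.3%, interval 42.1 to 48.6), against 24.5% of retained genes and 56.2% of all genes. Genes marked at 0 h only had it in 55.1% of cases in KO and 51.3% in WT (interval 47.9 to 54.8 in WT), and genes marked at 96 h only in 48.7% in KO and 46.4% in WT. The level of the share depends on the window. In both WT libraries it was 66.1% at members against 41.2% at retained genes with windows of 5 kb, and 12.1% against 4.18% where 0.5 or more of the window had to lie in listed regions. By library the share was 61.2% and 52.4% in KO and 62.4% and 45.8% in WT, against 41.1% and 31.8% of retained genes in KO and 43.5% and 25.3% in WT. Each of the 4 libraries had the members above the retained genes. The second replicate was lower in both genotypes, and its lists held 26206 peaks in KO and 24917 in WT against 71868 and 70687 in the first. Where the mark lay at the start-side end at 0 and 96 h, the same end carried H3K4me3 in both WT libraries at 242 of 622 members (38.9%, interval 35.1 to 42.9), against 20.7% of retained genes (interval 19.3 to 22.2). In bulk liver, both marks at 1 promoter and the marks in different cells cannot be told apart.

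Among the members with the strongest H3K4me3 peaks were Psmd14, Opa1, Ajm1 and Phpt1. Opa1, which encodes a GTPase of mitochondrial fusion, had H3K4me3 folds of 20.8 and 125 in KO and of 22.2 and 93.5 in WT at its start, and H3K27me3 at its tail (fold 1.92 at 0 h and 1.31 at 96 h). The overlapping genes Ajm1, a protein of epithelial junctions, and Phpt1, a histidine phosphatase, shared peaks with folds of 22.9 and 83.5 in KO and of 23.0 and 88.6 in WT. In both WT libraries Ajm1 had H3K4me3 at its tail and not at its start, and Phpt1 had it at both ends. Both genes also shared an H3K27me3 region of 6 kb with a fold of 3.10 at 0 h and of 5 kb with a fold of 2.51 at 96 h. Phpt1 itself lay just outside this region. Neither baseline library had an H3K27me3 region at this pair.

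Members lay in shorter regions than retained genes, with a median fold that was no lower. The median length of the 0 h region was 24 kb at members and 53 kb at retained genes, and at 96 h it was 20 kb and 41 kb. The median fold was 1.86 at members and 1.78 at retained genes at 0 h, and 1.85 and 1.77 at 96 h. Over the members the fold ran from 1.03 to 3.28 at 0 h and from 1.19 to 3.97 at 96 h. Genes in regions up to 20 kb at 0 h were members in 35.5% of cases (378 of 1065), those over 20 to 50 kb in 19.4%, those over 50 to 100 kb in 9.53% and those over 100 kb in 5.36% (69 of 1288). By fold at 0 h, 15.2% of genes under 1.5 were members, 14.9% from 1.5 to under 2, 22.4% from 2 to under 2.5 and 25.6% (53 of 207, interval 19.8 to 32.1) at 2.5 or more.

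The share of members differed with both length and H3K4me3. Among regions up to 20 kb, genes with H3K4me3 in both WT libraries were members in 46.8% of cases, and the others in 29.6%. Among regions over 100 kb, those with H3K4me3 were members in 12.3% of cases, and the others in 3.46%. CG content added less. Genes with 10 or more CG pairs were members in 29.4% of cases with H3K4me3 and in 14.3% without, and genes with fewer CG pairs in 24% with H3K4me3 and in 12.7% without. These groupings were chosen after the values were seen. The part of region length in the absence at 30 and 40 h was not tested.

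**Figure D2:**
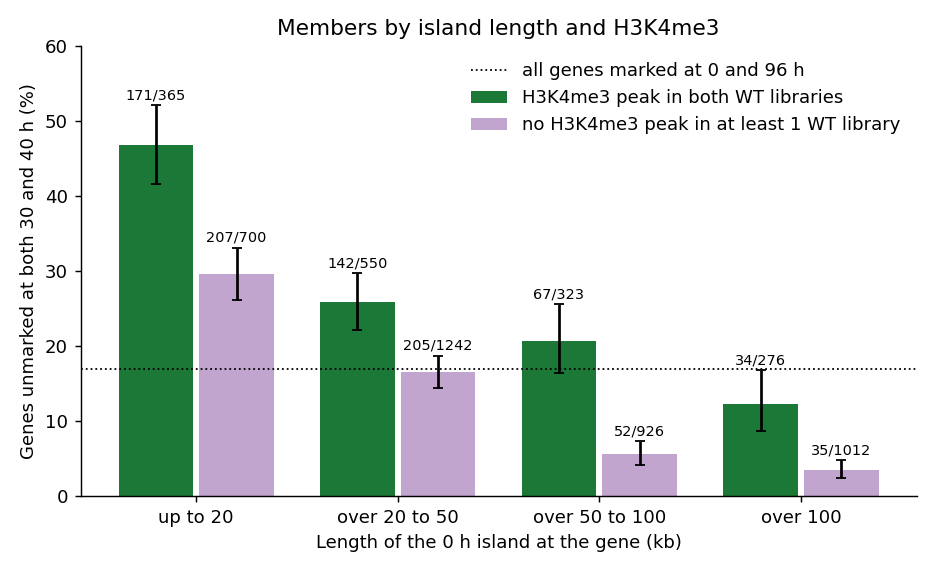
Percent of genes marked at 0 and 96 h that were unmarked at 30 and 40 h, by the length of the 0 h region in kb, for genes with an H3K4me3 peak in both WT libraries (green) and without (violet). Numbers over the bars are members over genes, error bars are exact 95% intervals of counting and the dotted line is the share over all 5394 genes. The share fell with length in both groups, to 12.3% and 3.46% over 100 kb, and was higher with H3K4me3 at each length.

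At 30 h the nearest listed region lay a median of 27.4 kb from the members' gene end windows, and at 40 h 26.7 kb. Taking both times together, 316 members (34.6%) lay within 5 kb of a region at 30 or 40 h and 154 (16.9%) lay more than 100 kb from any. The members farthest from any region were 3 genes of the nervous system and 2 zinc finger genes. Slitrk1, a neuronal transmembrane protein, was 2397 kb from a region at 30 h and 2837 kb at 40 h, and had a region of 8 kb with a fold of 2.22 at 0 h and of 6 kb with a fold of 2.75 at 96 h. Ncam2, a neural adhesion molecule, was 2220 kb away at 30 h and 2922 kb at 40 h. Sema3d, a secreted axon guidance factor, was 1903 kb away at 30 h and 1910 kb at 40 h. Zfp804a and Zik1 were next. Of these 5 genes, Ncam2 and Zfp804a had a region in both baseline libraries, Zik1 in WT only and the other 2 in neither.

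**Figure D3:**
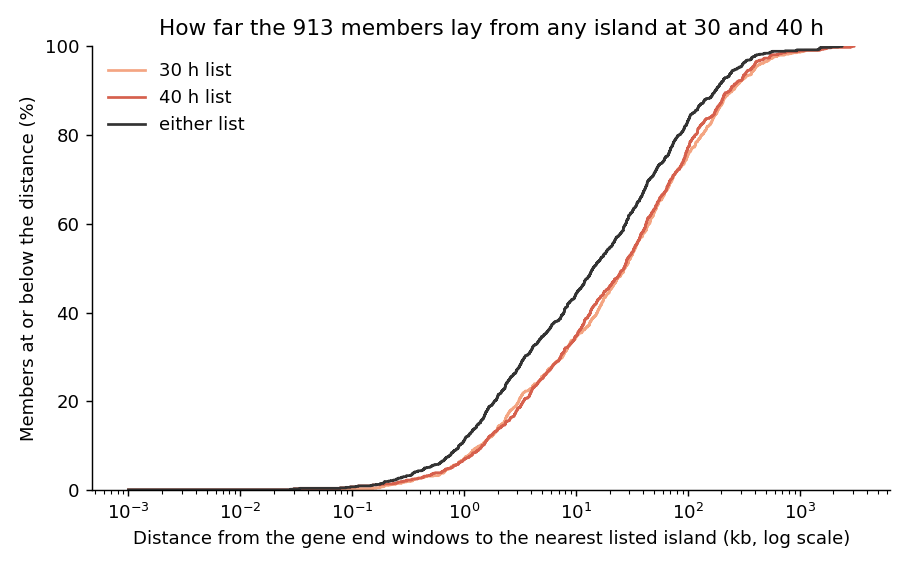
Cumulative percent of the 913 members by the distance in kb (log scale) from their gene end windows to the nearest listed H3K27me3 region at 30 h, at 40 h and at either time. The median was 27.4 kb at 30 h, 26.7 kb at 40 h and 14.2 kb to the nearer of both.

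Members at the limit of the rule show how fine the line was. The windows of Crygn lay 1 bp from a region at 40 h, and those of Cdk5r2 28 bp from a region at both times. For Zfp518a the distance was 30 bp at both times, for Cfap61 34 bp at 40 h and for Jph1 78 bp at 40 h. Just outside the rule, the windows of Ufc1 overlapped a region by 2 bp, those of Ctbp2 by 9 bp, those of Mtrf1l by 15 bp, those of Tnn by 29 bp and those of Sdhaf3 by 30 bp.

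The members rested on 813 separate regions at 0 h, covering 31.1 Mb, and on 803 at 96 h. Of the 813, 427 (52.5%) had no listed region anywhere along their length at 30 or 40 h, a share that the rule itself shapes. By strongest region, 498 members lay in a region that was gone throughout at both times, with a median length of 15 kb. The other 415 lay in regions that were partly kept, with a median length of 44 kb. Members in regions that were gone were marked at baseline in 56.2% of cases in KO and 53.0% in WT, and those in partly kept regions in 71.1% in KO and 76.4% in WT. H3K4me3 in both WT libraries was at 38.8% of members in regions that were gone and at 53.3% in partly kept ones.

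In partly kept regions, most members lay beside the kept piece and not between pieces. At 30 h, 290 of the 415 had a listed piece of the 0 h region on 1 side only, 60 (14.5%) had pieces on both sides and 65 had none. At 40 h the counts were 288, 55 and 72. In regions of 100 kb or more, the 70 members lay at a median of 30.7% of the way from the edge to the middle, against 57.3% for 1232 retained genes. All 14 Hox members had pieces on both sides at 30 h and at 40 h. They were 14 of the 60 such members at 30 h and 14 of the 55 at 40 h.

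The Hox genes encode homeodomain factors that set position along the body axis. Of 39 Hox genes, all were marked at 0 h, 14 at 30 h, 22 at 40 h and all at 96 h. Members were 14 of the 39 (35.9%, interval 21.2 to 52.8), against 16.9% of all genes marked at 0 and 96 h, and the 39 genes lie in 4 regions only. HoxB held 7 of its 10 genes as members, HoxA 5 of 11, and HoxC and HoxD 1 of 9 each. All 39 were marked in both baseline libraries.

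At HoxB the 0 h region ran over 498 kb (chr11:96078001-96576000) with a fold of 2.44. At 30 h 80.3% of it and at 40 h 72.7% of it was still covered, and the missing part included 1 gap of 85 kb at 30 h and of 88 kb at 40 h over the genes themselves. Hoxb9, Hoxb8, Hoxb7, Hoxb6, Hoxb5, Hoxb4 and Hoxb3 lay wholly in this gap at both times. The flanking pieces at 30 h had folds of 1.90 and 1.83, and at 96 h a region of 281 kb with a fold of 3.36 covered the whole cluster. Hoxb13 and Hoxb1, at the ends of the cluster, touched a region at both times.

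At HoxA the 0 h region of 349 kb (chr6:52032001-52381000, fold 2.62) had a gap of 110 kb at 30 h that held 10 of the 11 genes. At 40 h a region of 33 kb with a fold of 2.09 stood inside this gap and touched Hoxa3, Hoxa7, Hoxa9, Hoxa10 and Hoxa11. This left a gap of 64 kb with Hoxa2, Hoxa4, Hoxa5 and Hoxa6 and another of 17 kb with Hoxa13. These 5 genes are the HoxA members. At HoxC the gap was 51 kb at 30 h and 26 kb at 40 h, and Hoxc8 was the gene common to both. At HoxD the gap over genes was 49 kb at 30 h and 22 kb at 40 h, with Hoxd4 in both. In each cluster the longest gap at 30 h and at 40 h lay over Hox genes, and at HoxA, HoxC and HoxD it was shorter at 40 h than at 30 h. Shorter gaps with no Hox gene wholly inside also occurred, among them 23 kb at the end of the HoxC region at 30 h, 18 kb in the HoxB flank at 40 h and a second gap of 17 kb at HoxD at 40 h.

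**Figure D4:**
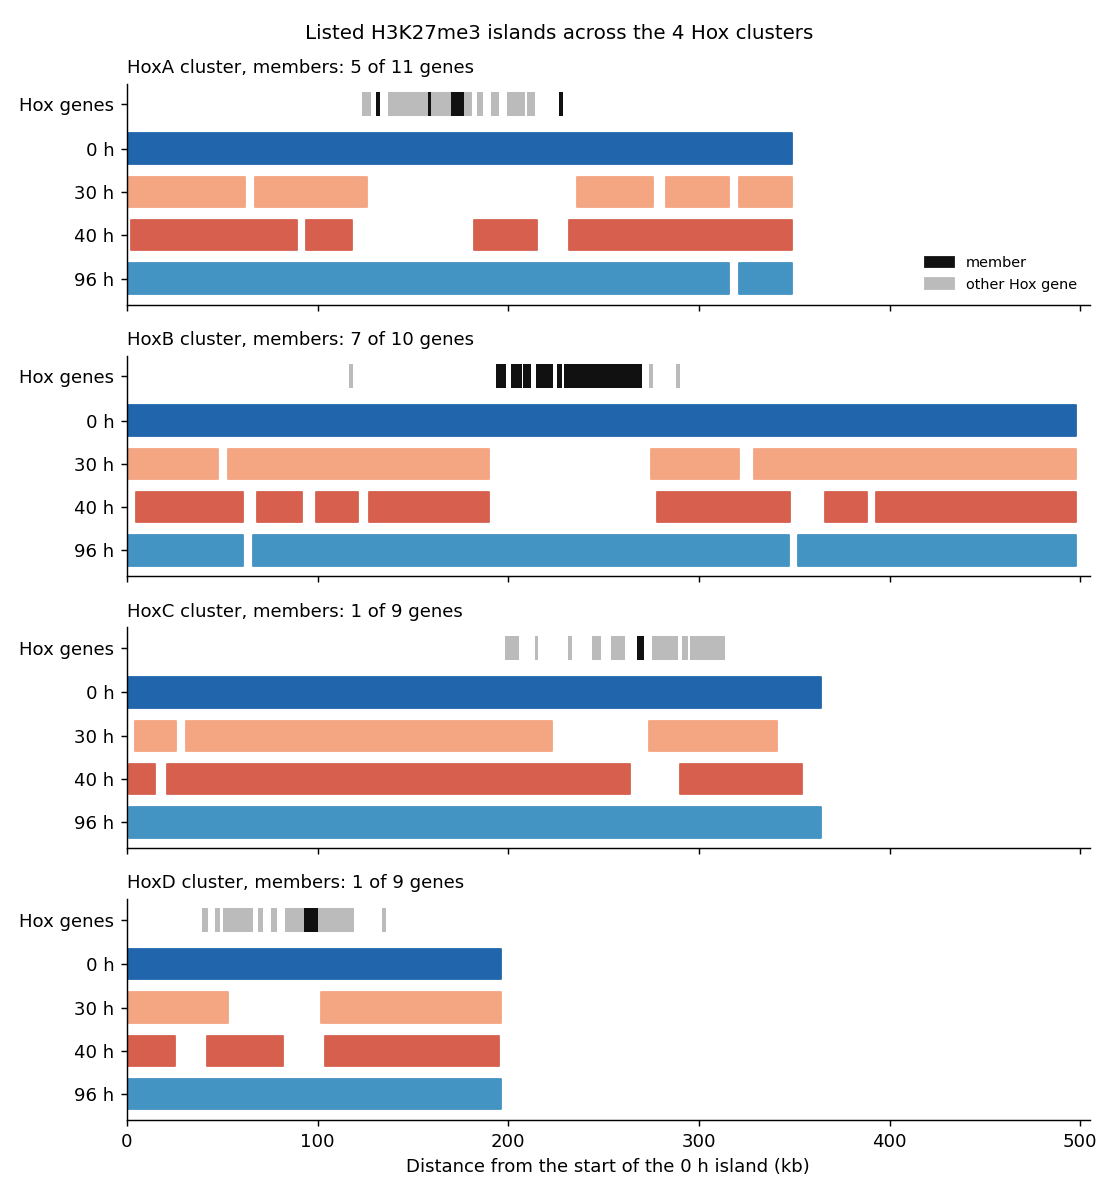
Listed H3K27me3 regions at 0, 30, 40 and 96 h across the 4 Hox clusters, as distance in kb from the start of the 0 h region, cut to that region. The upper row of each panel shows the Hox genes, members in black and others in grey. The longest gaps at 30 and 40 h lay over the genes, up to 110 kb at HoxA and 88 kb at HoxB, with listed pieces on both sides.

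Control reads could be counted outside the listed regions at HoxA and HoxC, and were not counted at HoxB and HoxD. At HoxA the control library shared by the 30, 40 and 96 h lists held 43.8 reads per kb over the 122 kb of the 96 h region that no 30 h region covered, against 58.5 per kb over the 194 kb that was covered. At HoxC it held 50.9 per kb over 82 kb uncovered at 30 h and 60.1 per kb over the covered 281 kb. The uncovered stretches include the shorter gaps beside the longest one. The control was present there at a lower density, and the part of this difference in the gaps was not tested. ChIP reads in the gaps are not in the lists.

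Of the 14 Hox members, 7 carried H3K4me3 at either gene end in both WT libraries, as did 9 of all 39 Hox genes. At Hoxa6 and Hoxb8 it was at the tail end and not at the start in both WT libraries. Hoxa5 and Hoxa6 shared peaks with folds of 8.42 and 19.22 in KO and of 8.75 and 12.2 in WT. Hoxb4 had folds of 6.05 and 21.8 in KO and of 7.0 and 14.2 in WT. Hoxa13, Hoxc8 and Hoxd4 had no peak in any of the 4 libraries.

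Members lay partly next to each other. Of the 913, 318 (34.8%) had another member as a neighbouring gene, where members were 4.42% of all genes. Genes marked at all 4 times, 15.6% of all genes, had a neighbour of their own class more often, in 66.9% of cases. Their longest run held 19 genes. The members formed 735 runs of adjacent members, 595 of them single genes, and the longest held 7. Outside Hox, a region of 15 kb on chromosome 2 (chr2:25229001-25244000, fold 2.19 at 0 h and 1.71 at 96 h) touched the end windows of 5 members. They were Slc34a3, Rnf224, Cysrt1, Rnf208 and Ndor1, and Ndor1 itself lay just outside the region. All 5 were marked in baseline KO with a fold of 2.09 and none in baseline WT. Ndor1, an enzyme of iron-sulfur cluster assembly, had H3K27me3 at its tail end only. Its H3K4me3, at the start in both WT libraries, had folds of 17.4 and 112 in KO and of 21.0 and 75.4 in WT. A region of 20 kb on chromosome 7 (chr7:102097001-102117000, fold 1.62 at 0 h and 1.77 at 96 h) touched the end windows of Xntrpc, Trpc2, Art5, Art1 and Chrna10. These were likewise marked in KO (fold 1.63) and not in WT, and Xntrpc and Trpc2 themselves lay just outside the region. The baseline KO list covered more sequence than the baseline WT list, and the part of this in both groups of genes was not tested. By chromosome, the share of genes marked at 0 and 96 h that were members was highest on chromosome 10 (25.4%) and lowest on chromosome 14 (8.64%).

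Among transcription factors outside Hox, members were 20 of 114 homeobox and paired-box genes marked at 0 and 96 h (17.5%) and 12 of 89 Sox, T-box, Gata, Fox and bHLH genes (13.5%), both near 16.9%. All 20 of these homeobox and paired-box members were marked in baseline KO and in baseline WT. Nkx2-3, a factor of spleen and gut development, had a region with a fold of 2.85 at 0 h and 2.98 at 96 h, with 2.65 in KO and 2.72 in WT. Lhx6, a factor of cortical interneurons, had 2.53 at 0 h and 2.58 at 96 h, with 2.29 in KO and 2.28 in WT. Meis2, a cofactor of Hox proteins, had its strongest region at the tail at 0 h (2.37) and at the start at 96 h (2.78). These are different regions. Its H3K4me3 folds were 17.1 and 38.8 in KO and 21.9 and 27.4 in WT. Neurod2, a neuronal bHLH factor, had 2.27 at 0 h and 2.64 at 96 h, and lay 72.4 kb from any region at 30 h. Tbx2, a T-box repressor of development, had 2.14 at 0 h and 3.76 at 96 h, in a region of 247 kb at 0 h and of 16 kb at 96 h.

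Zinc finger genes named Zfp gave 10 members of 51 (19.6%), of which 8 carried H3K4me3 in both WT libraries, as did 295 of all 360 Zfp genes. Zfp580 had an H3K27me3 fold of 3.28 at 0 h and 2.21 at 96 h at its tail end. Zfp882 had H3K4me3 folds of 22.1 and 110 in KO and of 23.9 and 75.9 in WT. Among genes of Polycomb and H3K27 demethylases, 2 of the 5 marked at 0 and 96 h were members, both subunits of Polycomb repressive complex 1. Pcgf1 had an H3K27me3 fold of 2.29 at 0 h and 2.84 at 96 h, with 2.28 in KO and 2.61 in WT, beside H3K4me3 folds of 17.6 and 87.0 in KO and of 19.5 and 75.9 in WT. Its H3K27me3 region at 0 and 96 h touched an end window only, and Pcgf1 itself lay just outside it. Phc1 had 1.66 at 0 h and 1.95 at 96 h, with 1.62 in KO and 1.75 in WT.

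**Figure D5:**
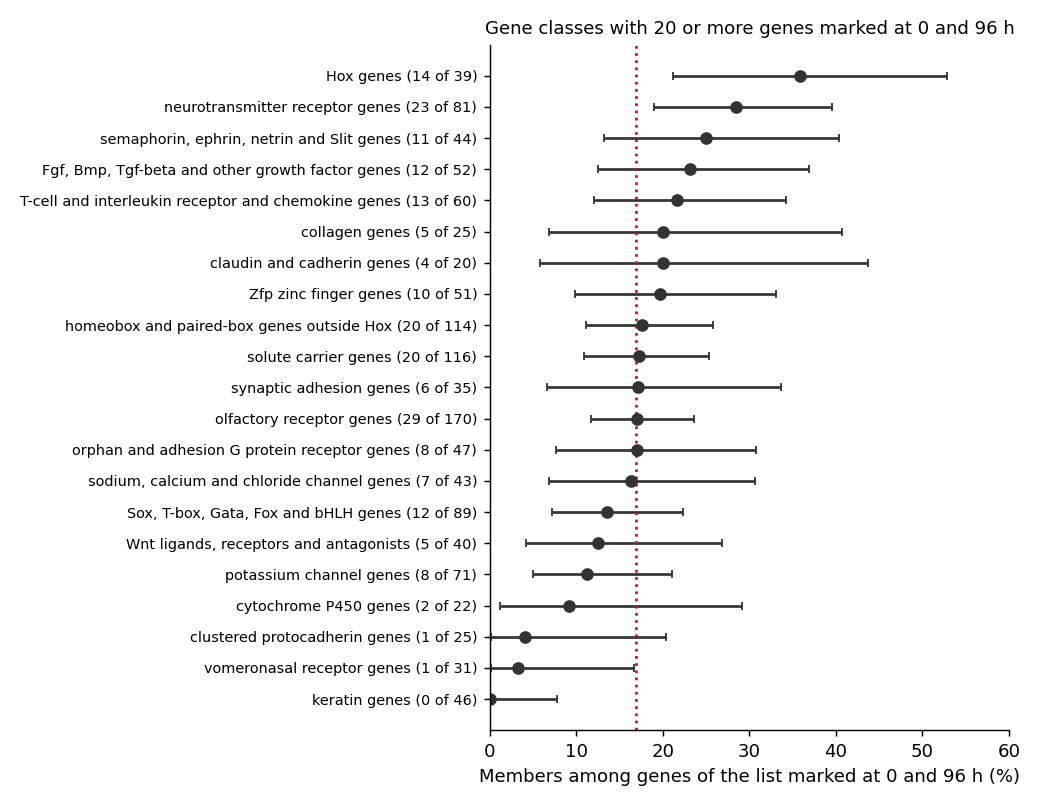
Percent of genes marked at 0 and 96 h that were members, for gene classes with 20 or more such genes. Points are shares, bars exact 95% intervals of counting and the dotted line the 16.9% over all genes. Among the classes shown, Hox genes (35.9%) and neurotransmitter receptors (28.4%) had the highest shares, and keratin (0 of 46) and vomeronasal receptor genes (1 of 31) the lowest. No class was tested against the line, and no allowance was made for the number of classes. The 39 Hox genes lie in 4 regions only. The vomeronasal interval reached 16.7%, close to the line. The intervals treat genes as independent, though genes of a class can share a region.

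Among signalling genes, 12 of 52 Fgf, Bmp, Tgf-beta and other growth factor genes were members (23.1%, interval 12.5 to 36.8). Fgf10, a mesenchymal growth factor, had a region of 6 kb with a fold of 2.74 at 0 h and of 8 kb with a fold of 2.57 at 96 h, and lay 304.7 kb from any region at 30 and 40 h. Bdnf, a neurotrophin, had 1.95 at 0 h and 1.93 at 96 h, and Bmp8a, a Bmp ligand, had 1.99 at 0 h and 1.84 at 96 h. Of Wnt ligands, receptors and antagonists, 5 of 40 were members (12.5%). The ligand Wnt9a had 2.01 at 0 h and 2.14 at 96 h, and the ligand Wnt2b 2.15 at 0 h and 1.86 at 96 h. Lgr5, a receptor of R-spondins, had 1.85 at 0 h and 1.98 at 96 h, with 2.05 in KO and 2.15 in WT. The other 2 were Sfrp4, a secreted antagonist, and the ligand Wnt5a, and neither had a region in baseline KO.

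Of 44 semaphorin, ephrin, netrin and Slit genes, which guide axons and vessels, 11 were members (25%, interval 13.2 to 40.3), and 8 of the 11 carried H3K4me3 in both WT libraries, as did 35 of all 66 genes of the list. Epha5, an ephrin receptor, had a region of 9 kb with a fold of 2.40 at 0 h and of 10 kb with a fold of 2.29 at 96 h, and no region in baseline KO or WT. Efna2, an ephrin, had 2.04 at 0 h and 2.33 at 96 h. Sema6b, a transmembrane semaphorin, had 1.97 at 0 h and 2.00 at 96 h, with none in KO and 2.10 in WT. T-cell and interleukin receptor and chemokine genes gave 13 members of 60 (21.7%), among them Cxcr4, a chemokine receptor, with 2.16 at 0 h and 1.77 at 96 h.

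Neurotransmitter receptor genes gave 23 members of 81 (28.4%, interval 18.9 to 39.5). Of all receptor genes of this list, 87 were marked at 0 h, 57 at 30 h, 45 at 40 h and 82 at 96 h. The median fold of the 23 members at 0 h was 1.75, against 1.86 over all members. Htr2a, a serotonin receptor, had a region of 11 kb with a fold of 2.38 at 0 h and of 4 kb with a fold of 3.25 at 96 h. Drd4, a dopamine receptor, had 2.14 at 0 h and 2.32 at 96 h, with 2.35 in KO and 2.47 in WT. Grik5, a kainate receptor subunit, had the mark at its tail and H3K4me3 at its start. Potassium channel genes gave 8 members of 71 (11.3%), sodium, calcium and chloride channel genes 7 of 43 (16.3%) and synaptic adhesion genes 6 of 35 (17.1%). Orphan and adhesion G protein receptor genes gave 8 of 47 (17.0%) and solute carrier genes 20 of 116 (17.2%).

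Genes of hepatocytes were few, since few carried H3K27me3. Cyp2e1, an ethanol-oxidising enzyme abundant in hepatocytes, was the single hepatocyte gene marked at 0 and 96 h of 48, and it was a member. Its mark lay at the tail end, in a region of 36 kb with a fold of 2.38 at 0 h and of 42 kb with a fold of 2.31 at 96 h, with 1.91 in KO and 2.29 in WT. H3K4me3 at its start had folds of 14.2 and 48.2 in KO and of 15.2 and 36.9 in WT. Cytochrome P450 genes as a whole gave 2 members of 22 (9.09%). Of 9 major urinary protein genes marked at 0 and 96 h, 5 were members, Mup10, Mup13, Mup17, Mup18 and Mup22. All 5 had H3K4me3 in both WT libraries, as did 20 of all 22 genes of the family. These genes are near-identical copies, between which reads can be split or lost, and their calls are uncertain. Serpin genes gave 1 member of 9.

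Among genes of cell growth, 14 of 49 cell cycle and DNA replication genes were marked at 0 h and 4 at both 0 and 96 h, of which E2f7 was a member. E2f7, a repressor of E2F targets, had an H3K27me3 fold of 1.77 at 0 h and 1.97 at 96 h, with 1.85 in KO and none in WT, and H3K4me3 folds of 10.8 and 20.3 in KO and of 13.1 and 11.8 in WT. Immediate early and priming genes gave 1 member of 7, the cytokine gene Il6, with 1.62 at 0 h and 1.61 at 96 h. The windows of Il6 lay 0.113 kb from a region at 40 h.

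Genes that mark other liver cells were described too, since bulk liver holds these cells. A change in the mark and a change in the share of cells that carry it cannot be told apart in these lists. Bile duct cell genes were marked at 12 of 17 at 0 h, 7 at 30 h, 7 at 40 h and 12 at 96 h, and gave 4 members of 12, Prom1, Cftr, Cldn7 and Sox9. Sox9, a factor of bile duct cells, had a fold of 1.60 at 0 h and 1.80 at 96 h, with none in baseline KO or WT, and H3K4me3 folds of 11.6 and 26.5 in KO and of 16.0 and 17.6 in WT. Liver endothelial genes gave 3 of 13, Flt1, Cdh5 and Clec4g. All 3 had H3K4me3 in both WT libraries, as did 22 of the 24 genes of the list. Stellate cell and fibroblast genes gave 1 of 13 (Reln), lymphocyte genes 1 of 10 (Cd4) and macrophage and myeloid genes 0 of 14, with an exact interval of up to 23.2%. Taken as 3 counts, the limit for a count of 0, it allows up to 21.4%. Collagen genes gave 5 of 25, and Col4a1 and Col4a2, collagen IV chains transcribed from a shared start region, were members through 1 region of 8 kb with a fold of 2.48 at 0 h.

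The shares differed between large clustered families, whose neighbouring genes can share a region. Keratin genes gave 0 members of 46, with an exact interval of up to 7.71% and a limit of 6.52% as 3 counts, and 44 of the 49 keratin genes were marked at 30 h and 41 at 40 h. Vomeronasal receptor genes gave 1 of 31 (3.23%) and clustered protocadherin genes 1 of 25 (4%). Olfactory receptor genes gave 29 of 170 (17.1%), none with H3K4me3 in both WT libraries (1 of all 1104 had it), with a median fold of 1.51 at 0 h. Claudin and cadherin genes gave 4 of 20, germline genes silenced by DNA methylation 4 of 19, imprinted genes 1 of 15 (Ndn), interferon response genes 0 of 7 (exact interval up to 40.96%, and 42.9% as 3 counts), and replication-dependent histone genes 0 of 2. Reep5 was the single member of a list of housekeeping genes.

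H3K9me3 was rare at members, as it was over all genes, and its shares have no replicate check. In KO 31 members (3.40%) had a broad H3K9me3 peak at a gene end, against 5.13% of retained genes and 4.37% of all genes. In WT 26 did (2.85%), against 5.38% of retained genes and 4.47% of all genes.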

How the data were processed

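Regions are the authors' calls, made per library. Per the submitters' processing notes, reads went through FastQC 0.11.5, Trimmomatic, BWA, Picard, MACS2 and SICER, on GRCm38.p4 and mm10. No other settings are given in the sources used here. The H3K27me3 lists are SICER islands (window 1000 bp, gap 4000 bp, per the file names), in which the authors deposited raw ChIP and control read counts, fold, p-value and false discovery rate without further normalization. The deposited H3K4me3 narrow and H3K9me3 broad peaks carry a MACS2 score, a fold, and −log10 of the p-value and q-value. Total read counts are not given, and depth is known only as a scale against control. All listed islands were used, and where several touched a gene the strongest fold is given.

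Gene ends were read from RefSeq genes of GRCm38.p6. Strand and promoters came from its promoter table, which matched 16457 of 20665 genes by gene ID. Genes named are up to 5 members per list by the lower fold of 0 and 96 h, the 10 strongest (1 per 0 h region, provisional names left out), the 5 largest groups, those nearest to and farthest from regions, and those with the strongest H3K4me3, of which 1 is not reported here. Members and the 37 gene lists were chosen with earlier results of these data known. The comparisons are counts and shares, with no test. Alternatives changed thresholds, windows, ends and libraries. The overlap code was tested on simulated lists. Python 3.11.15 was used with numpy (2.4.6), pandas (2.3.3), scipy (1.17.1) and, for plots, matplotlib (3.10.9).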

Additional observations from a re-analysis of the deposited data

How the results depend on the processing

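Of 74 alternative values, 39 stayed within 1.5 times the count or within the counting interval of the share, and 35 moved. An FDR of 0.01 or below moved none of the 6 results, and neither did equal covered length, which could add no region at 30 or 40 h. Islands at a fold of 1.5 or above gave 1534 members (35.6% of genes marked at 0 and 96 h) on 1366 islands, with 76.1% marked in baseline KO, 73.3% in baseline WT and 37.03% with H3K4me3 in both WT libraries. Of the 913 members, 738 were among those 1534. Without the 30 h library there were 1611 members (29.9%) on 1463 islands, with 74.0% in KO, 71.4% in WT and 39.9% with H3K4me3. Without the 40 h library there were 1473 (27.3%) on 1311 islands, with 73.3% in KO, 71.3% in WT and 41.5% with H3K4me3. Without the 96 h library there were 1743 (26.1%) on 1427 islands, with 41.0% in KO and 39.6% in WT. With the other baseline WT library in place of 0 h, 668 genes were members, 581 of them among the 913. They were 13.8% of genes marked in both lists, and 77.5% were marked in KO. Using the start-side end alone, members were 21.8% of genes marked at 0 and 96 h, and 67.3% were marked in WT. Windows of 5 kb gave 15.5%, with 58.6% in KO and 54.8% in WT. The share with H3K4me3 followed the window, at 38.7% with 500 bp, 54.8% with 2 kb and 66.1% with 5 kb, and at 12.1% where 0.5 or more of the window had to lie in regions. It ranged from 45.8% to 62.4% when 1 of the 2 WT H3K4me3 libraries was left out. No paired analysis was possible because each H3K27me3 group has 1 library and no test was run. Each time and genotype is 1 library, and total read counts are not given. The 30 and 40 h lists hold fewer reads in regions and have a lower ChIP to control scale than the 96 h list.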
